A study of Mus musculus with 6 samples.

Results

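The collagen genes were taken as every gene whose symbol has the form Col, a number, a and a number, which gave 44 of the 24422 genes counted. Of these, 39 had at least 60 reads summed over the 6 libraries, and fold changes are given for these 39. They comprised 10 fibrillar chains, 8 basement membrane chains (6 of type IV, and Col15a1 and Col18a1) and 21 other chains. The libraries were made from whole kidneys of C57BL/6 mice at postnatal day 13, all on an iron sufficient diet with 220 ppm iron. There were 3 Control kidneys, labelled wild type, and 3 TfR1 knockout kidneys, labelled Tfr1f/f;SixCre, in which floxed alleles of the transferrin receptor gene were targeted with Six2Cre. Six2Cre acts in nephron progenitors and not in the stroma, and the study describes TfR1+ cells that escaped the deletion in knockout tubules. The comparison asked how transcript levels differ when this receptor, the route by which cells take up transferrin-bound iron, is deleted in the nephron lineage.

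Collagens are proteins of the extracellular matrix in which chains wind into a triple helix. Fibrillar collagens such as types I, III and V form the fibrils of the interstitium and are made mainly by fibroblasts and other stromal cells. Type IV collagen forms the sheet-like network of basement membranes, which underlie the tubules, the endothelium and the glomerular filter. Prolyl and lysyl hydroxylases, which modify the chains as they are made, need iron as a cofactor.

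Libraries held 16591156 to 22898008 gene counts. Below, 3 values of a group always stand in the order of its replicates 1 to 3, and normalized counts are counts divided by a size factor per library. Tfrc, the targeted gene, was at 5534, 6485 and 3667 normalized counts in Control kidneys and at 6976, 4045 and 5898 in TfR1 knockout kidneys. These counts overlapped between groups and cover the whole transcript rather than the floxed part, so they do not check the labels. The kidney label was borne out by tubule markers, since proximal tubule genes (5 listed) summed to 32636 normalized counts or more in every library. Collagen transcripts took 0.963%, 0.943% and 1.53% of the counts in Control kidneys and 1.05%, 0.608% and 1.03% in knockout kidneys. Control replicate 3 and TfR1 knockout replicate 2 thus stood apart in opposite directions. Among the 39 genes, Control replicate 3 was the highest Control for 27 (69.2%, against 43.4% of all 16509 genes tested), and TfR1 knockout replicate 2 was the lowest knockout for 27 (69.2%, against 40.2%). Calls of collagen and pathway genes that were gained or lost without these 2 libraries are therefore given below. The 2 were picked from these collagen values, as the highest Control and the lowest knockout. Leaving them out therefore tends to raise collagen fold changes and to narrow the spread. Results without them show dependence on these libraries and do not test a collagen difference. The libraries are described as biological replicates, and p-values of the count models set the difference between groups against the estimated spread between libraries. In whole kidney RNA, fewer cells of a type and less RNA per cell cannot be told apart.

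Col12a1 and Col20a1 rose in TfR1 knockout kidneys, and Col9a2, Col14a1, Col26a1, Col3a1 and Col4a6 fell (DESeq2 adjusted p under 0.05). The 2 that rose were both fibril-associated chains, whereas those that fell included fibril-associated, fibrillar and type IV chains. The most abundant basement membrane chains, Col4a1 and Col4a2, had fold changes of 1.1 and 1.08 and did not pass. Over all genes tested, 7.74% were called higher and 7.18% lower. The 7 called collagen genes were 17.9% of the 39, against 15.8% of all genes with at least 60 reads, a share near the background and so not a result about collagens as a family. At a 2-fold change as well, 1 collagen gene was higher (Col12a1) and 4 were lower, where 8.87% of all genes tested passed in either direction. The edgeR quasi-likelihood test called 1 of the 39, Col26a1 (2.56%), against 6.02% of all genes it tested. At an unadjusted p under 0.05, edgeR gave 5 higher and 6 lower, and DESeq2 5 higher and 10 lower. The values of the groups did not overlap for 4 higher and 8 lower collagen genes, 30.8% of the 39, against 33.7% of all genes tested. Without Control replicate 3 and TfR1 knockout replicate 2, which left 2 libraries a group, 7 collagen genes were called higher and 6 lower (33.3% of the 39, against 18% of all genes with an adjusted p in that fit). The median log2 fold change of the 39 turned from -0.49 to 0.11, a rise that the choice of these 2 libraries favours. Col20a1 and Col9a2 lost their calls, and Col4a1, Col6a1, Col6a2, Col8a2, Col13a1 and Col18a1 were then called higher and Col4a3 and Col4a4 lower.

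**Figure D1:**
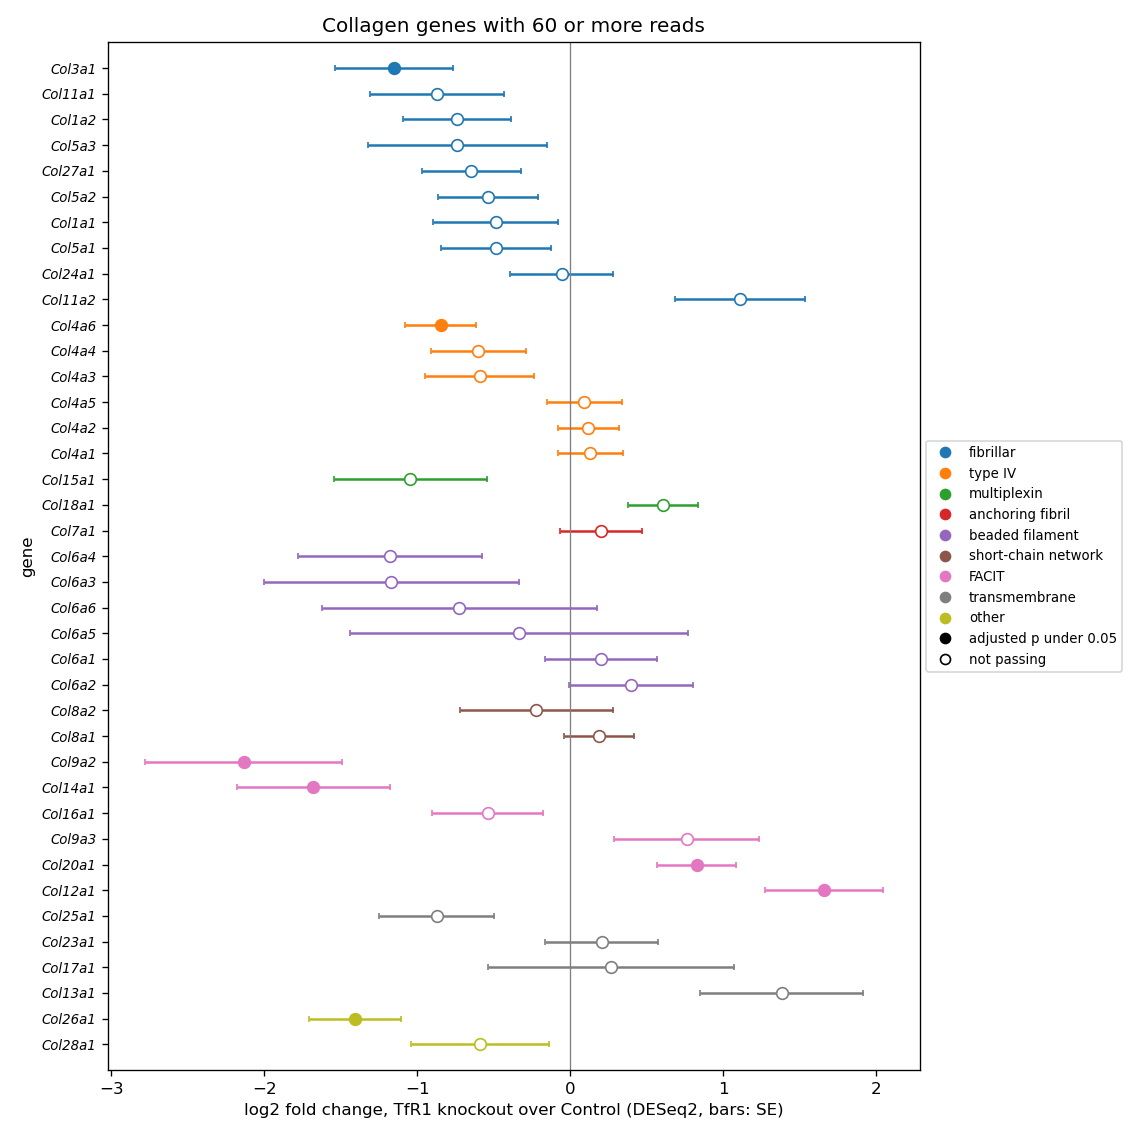
The log2 fold change of TfR1 knockout over Control kidneys (horizontal axis, with SE bars, n = 3 each) is plotted for each of the 39 collagen genes, coloured by class. Filled points passed an adjusted p under 0.05 (DESeq2), with 2 to the right of 0 and 5 to the left.

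Among the fibrillar chains, 9 of 10 had a log2 fold change below 0, but only Col3a1 passed the test. The median log2 fold change of the 10 was -0.59, beside 0.0071 over all genes tested. Col3a1, the single chain of type III collagen of distensible tissues, was at 26739, 24855 and 55624 normalized counts in Control kidneys and at 20548, 9821 and 17967 in knockout kidneys. All knockout kidneys lay below all Control kidneys, and Control replicate 3 stood far above the other Controls. The mean was 35739 ± 17246 in Control and 16112 ± 5599 in knockout kidneys (SD, n = 3 each), a 2.22-fold fall (log2 fold change -1.15 with an SE of 0.39, DESeq2 adjusted p 0.0249, edgeR adjusted p 0.134). Over the 16 alternative fits the adjusted p ran from 1.99e-04 to 0.146, with 11 below 0.05. The call was lost without Control replicate 3 (log2 fold change -0.68), TfR1 knockout replicate 2 (-0.89) or TfR1 knockout replicate 3 (-1.23). Without both Control replicate 3 and TfR1 knockout replicate 2 it passed at a smaller size (-0.42, DESeq2 adjusted p 0.00901).

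Col1a1 and Col1a2 encode the chains of type I collagen, the main fibril former of connective tissue. Col1a1 was at 13822, 13491 and 21939 normalized counts in Control kidneys and at 17835, 5367 and 11930 in knockout kidneys. TfR1 knockout replicate 1 lay above Control replicates 1 and 2, so the groups overlapped (log2 fold change -0.49 with an SE of 0.41, DESeq2 adjusted p 0.466). Without Control replicate 3 and TfR1 knockout replicate 2 its sign turned (0.12, DESeq2 adjusted p 0.755). Col1a2 was at 20776, 20784 and 37760 in Control and at 20193, 9543 and 17798 in knockout kidneys. These groups did not overlap, although TfR1 knockout replicate 1 came close to Control replicates 1 and 2, and the difference did not pass (-0.74 ± 0.35 SE, DESeq2 adjusted p 0.148).

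The remaining fibrillar chains had overlapping groups throughout. For type V collagen, which joins type I fibrils and sets their diameter, the log2 fold changes were -0.49 (Col5a1), -0.54 (Col5a2) and -0.74 (Col5a3). Their DESeq2 adjusted p lay between 0.283 and 0.435. Of the type XI chains, Col11a1 had a log2 fold change of -0.87 and Col11a2 one of 1.11. Col11a2 was the single fibrillar chain with a higher knockout mean, 180 ± 94.5 against 83.2 ± 14.9 normalized counts (SD, n = 3 each), and just missed the threshold (DESeq2 adjusted p 0.0575). Col24a1 (-0.05) and Col27a1 (-0.65) did not pass either. Leaving out TfR1 knockout replicate 1, Col27a1 (-1.06, DESeq2 adjusted p 2.08e-04) and Col5a3 (-1.49, DESeq2 adjusted p 0.0378) passed as lower. In that fit Col11a2 passed as higher (1.42, DESeq2 adjusted p 0.00184). Without Control replicate 3 and TfR1 knockout replicate 2, none of Col27a1, Col5a3 and Col11a2 passed. Summed over the 10 fibrillar chains, Control kidneys held 70364, 67991 and 128431 normalized counts and knockout kidneys 67590, 29904 and 55049. Control replicates 1 and 2 and TfR1 knockout replicate 1 were thus near each other, and Control replicate 3 and TfR1 knockout replicate 2 marked the extremes. Without those 2 libraries the fibrillar median log2 fold change was -0.078, and without TfR1 knockout replicate 1 alone it was -0.86.

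**Figure D2:**
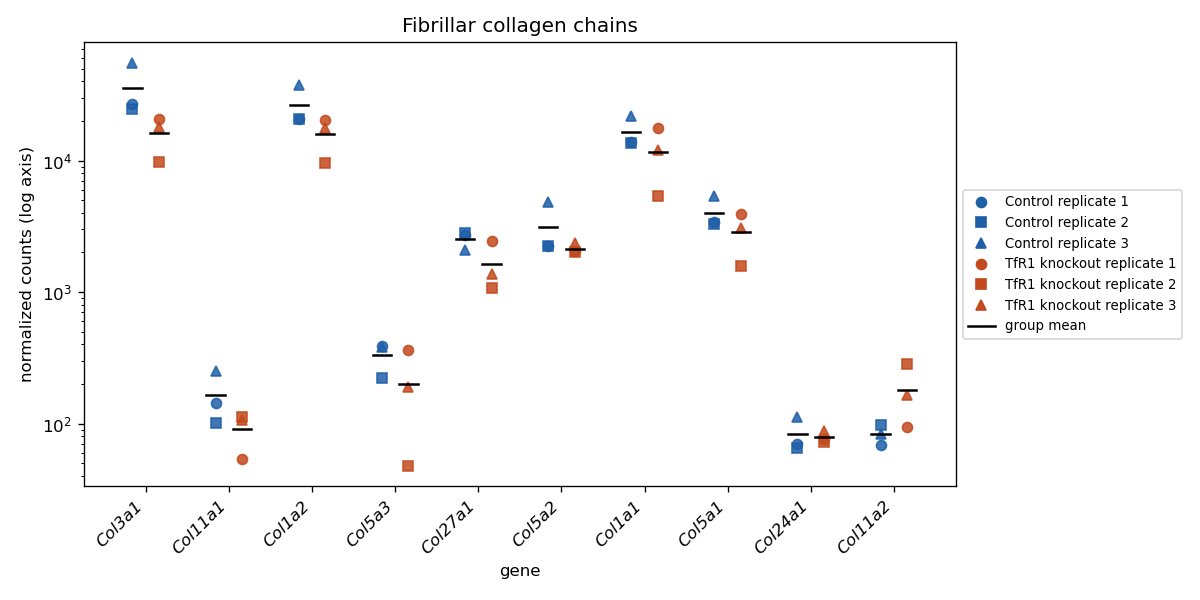
Normalized counts (log axis) of the 10 fibrillar chains are shown in each library, Control in blue and TfR1 knockout in orange, with the replicate given by the symbol and the group mean by a bar. Control replicate 3 is the highest Control for 7 chains and TfR1 knockout replicate 2 the lowest knockout for 8.

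The interstitial stroma markers, a list of 8 genes, moved with these values in part. They summed to 9014, 9167 and 21120 normalized counts in Control kidneys and to 8898, 11176 and 12996 in knockout kidneys. Control replicate 3 was therefore highest for the stromal sum as for fibrillar chains, and it was the highest Control for all 8 markers. TfR1 knockout replicate 2, lowest for the summed fibrillar chains, was not low for the stromal sum, to which Pdgfra and Pdgfrb gave most of its counts there, but it was the lowest of all 6 libraries for 5 of the 8 markers (Tcf21, Meis1, Meis2, Foxd1 and Dpt). Of the 8 markers 0 passed as higher and 1 as lower (Dpt, log2 fold change -1.96), and 0 were higher and 2 lower at an unadjusted p under 0.05 (DESeq2), against 0 and 1 by edgeR at either threshold. The 5 smooth muscle and myofibroblast markers summed to 11044, 11257 and 19560 in Control and to 10870, 7501 and 11968 in knockout kidneys, with the same libraries highest and lowest as for the fibrillar sum. Of these 5 markers 2 fell, Cnn1 (-1.36) and Postn (-1.67), whereas Acta2 (-0.27) did not pass. By edgeR 0 of these 5 passed, with 2 lower at an unadjusted p under 0.05. Other cell type markers moved between the groups as well. Of 7 macrophage markers 5 rose, with sums of 2007 to 3145 normalized counts in Control and 5513 to 6439 in knockout kidneys. Of 4 collecting duct markers 3 rose, and Hsd11b2 (log2 fold change -0.34) did not pass. All 3 markers of the thick ascending limb and distal convoluted tubule fell, as did 2 of 5 proximal tubule markers. By edgeR the passing counts of these lists were 4 (macrophage), 1 (collecting duct), 2 (thick ascending limb and distal) and 1 (proximal tubule). With Control replicate 3 and TfR1 knockout replicate 2 left out, the stromal markers gave 2 higher (Pdgfrb and Gli1) and 1 lower. Their median log2 fold change turned from -0.39 to 0.25. In that fit Cnn1 lost its call (-0.94, DESeq2 adjusted p 0.107) and Tagln passed as higher (0.39, DESeq2 adjusted p 0.0479). All 5 proximal tubule markers then passed as lower and all 7 macrophage markers as higher. The part of cell content in the collagen values was not tested.

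The basement membrane chains split. Col4a1 and Col4a2, which form the network common to all basement membranes, had nearly equal group means, whereas Col4a6 fell and the means of Col4a3 and Col4a4 were lower without passing. The median log2 fold change of the 8 chains was -0.25, and it was -0.23 without Control replicate 3 and TfR1 knockout replicate 2. Their summed normalized counts were 92472, 95856 and 108370 in Control and 105494, 89140 and 112943 in knockout kidneys, so that the groups overlapped.

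Col4a1 was at 31850, 33752 and 44640 normalized counts in Control kidneys and at 39792, 34525 and 46549 in knockout kidneys (log2 fold change 0.13 with an SE of 0.21, DESeq2 adjusted p 0.736). Its partner Col4a2 was at 24427, 25844 and 32885 in Control and at 29320, 26269 and 34628 in knockout kidneys (0.12 ± 0.20 SE, DESeq2 adjusted p 0.755). In both groups replicate 3 was the highest library for both genes. Without Control replicate 3 and TfR1 knockout replicate 2, Col4a1 passed as higher at a small size (0.40, DESeq2 adjusted p 0.0197), and Col4a2 did not (0.35, DESeq2 adjusted p 0.054).

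Col4a3, Col4a4 and Col4a5 encode the chains of the glomerular filter's network, made by podocytes and also present in some tubules. Col4a3 was at 6960, 6725 and 3362 normalized counts in Control kidneys and at 2740, 5359 and 3219 in knockout kidneys. Col4a4 followed with 5711, 5543 and 2868 in Control and 2792, 3901 and 2628 in knockout kidneys. For both genes Control replicate 3 lay among the knockouts, and the differences did not pass (log2 fold change -0.59 with an SE of 0.36, DESeq2 adjusted p 0.279 for Col4a3, and -0.60 ± 0.31 SE, DESeq2 adjusted p 0.19 for Col4a4).

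Without Control replicate 3, Col4a3 passed as lower (DESeq2 adjusted p 0.0442), as did Col4a4 (log2 fold change -0.86, DESeq2 adjusted p 0.00343). The adjusted p of Col4a3 ran from 8.27e-16 to 0.628 over the 16 alternatives and that of Col4a4 from 2.55e-16 to 0.539, the lowest without Control replicate 3 and TfR1 knockout replicate 2 in both cases. Col4a5 was at 4587, 3977 and 2610 in Control and at 3528, 4322 and 4078 in knockout kidneys, with a change near 0 (0.09 ± 0.25 SE, DESeq2 adjusted p 0.849) that was negative without Control replicate 3 (-0.11). The 6 podocyte markers summed to 14751, 16179 and 10537 normalized counts in Control and to 14887, 15906 and 18131 in knockout kidneys. Control replicate 3 was thus the lowest library for them as for Col4a5, whereas for Col4a3 and Col4a4 it was only the lowest Control. Of these markers 1 rose (Wt1, 1.20) and 0 fell, also at an unadjusted p under 0.05 (DESeq2, and by edgeR). The 5 proximal tubule markers summed to 93626, 91246 and 48294 normalized counts in Control and to 44718, 42334 and 32636 in knockout kidneys. Control replicate 3 was thus the lowest Control for this sum as well. Whether podocyte or tubule content bears on Col4a3 and Col4a4 was not tested.

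Col4a6 encodes the chain that joins Col4a5 in basement membranes such as that of Bowman's capsule. It was at 613, 560 and 421 normalized counts in Control kidneys and at 272, 271 and 343 in knockout kidneys. All knockout kidneys lay below all Control kidneys, and TfR1 knockout replicates 1 and 2 were nearly equal. The means, 531 ± 99.4 and 296 ± 41.3 (SD, n = 3 each), differed 1.8-fold (log2 fold change -0.85 with an SE of 0.23, DESeq2 adjusted p 0.00408, edgeR adjusted p 0.0521). The adjusted p ran from 2.16e-04 to 0.1 over the 16 alternatives, and the call was lost without Control replicate 1 (-0.73) or Control replicate 2 (-0.81) as well as by edgeR and limma-voom.

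Col15a1 and Col18a1, the multiplexins of basement membrane zones that release anti-angiogenic fragments, had opposite signs. Col15a1 was at 6675, 7096 and 12667 normalized counts in Control and at 7326, 1483 and 4007 in knockout kidneys, with overlapping groups (-1.04 ± 0.50 SE, DESeq2 adjusted p 0.148). Col15a1 passed as lower without TfR1 knockout replicate 1 (-1.68, DESeq2 adjusted p 0.00255) and with the replicate number as a block (-1.28, DESeq2 adjusted p 0.00216). Without Control replicate 3 and TfR1 knockout replicate 2 it was at -0.28 (DESeq2 adjusted p 0.524). Col18a1 was at 11648, 12359 and 8917 in Control and at 19723, 13010 and 17491 in knockout kidneys. Its groups did not overlap, and it just missed the threshold (0.61 ± 0.23 SE, DESeq2 adjusted p 0.0528). Col18a1 passed without TfR1 knockout replicate 2 (0.77, DESeq2 adjusted p 0.00491) and when only genes with at least 60 reads were fitted (DESeq2 adjusted p 0.0469). It also passed without that library and Control replicate 3 (0.63, DESeq2 adjusted p 8.92e-06). Those 2 libraries were picked by their collagen values, so the latter fit shows dependence on them and does not test a rise.

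**Figure D3:**
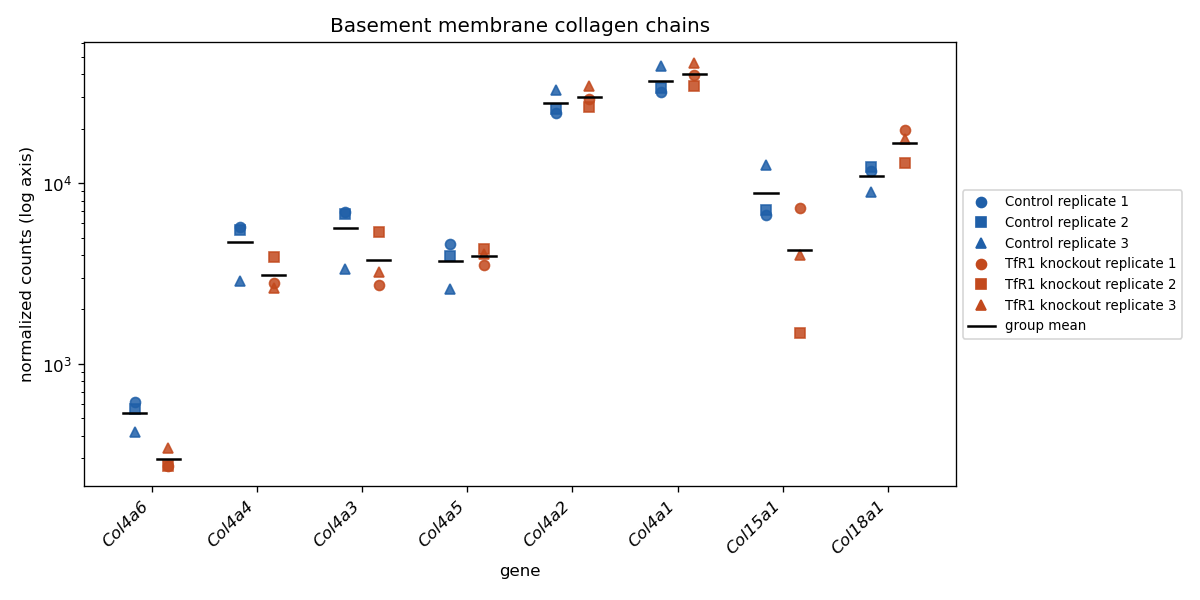
Normalized counts (log axis) of the 6 type IV chains, Col15a1 and Col18a1 are shown in each library, with colours, symbols and bars for group, replicate and group mean. Col4a6 and Col18a1 are the chains whose groups do not overlap, and Control replicate 3 lies among the knockouts for Col4a3 and Col4a4.

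The type IV genes lie in pairs that face away from each other. In the NCBIM37 (mm9) build, the coding transcripts of Col4a4 and Col4a3 on chromosome 1 start 127 bases apart, those of Col4a6 and Col4a5 on the X chromosome 1309 bases apart, and the first exons of Col4a1 and Col4a2 on chromosome 8 overlap by 22 bases. The strand setting of the counting was not given in the sources used here, so reads in that overlap could count for either gene or be dropped as ambiguous. The sequence between Col4a4 and Col4a3 (plus strand, chr1:82583425-82583550) is shown because both genes start from its ends and had similar values, and a retained-intron transcript of Col4a3 begins inside it. The 250 bases upstream of Col4a5 (plus strand, chrX:137909678-137909927) and Col4a6 (minus strand, chrX:137908620-137908869) are shown because these neighbours differed in their changes. Capitals mark, on either strand, matches to 3 short promoter motifs that do not overlap here. These were the CCAAT box, the GC box written as GGGCGG, and the TATA box written as TATAAA.
Col4a4-Col4a3: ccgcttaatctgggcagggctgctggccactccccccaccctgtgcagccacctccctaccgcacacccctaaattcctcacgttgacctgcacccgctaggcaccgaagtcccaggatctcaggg
Col4a5: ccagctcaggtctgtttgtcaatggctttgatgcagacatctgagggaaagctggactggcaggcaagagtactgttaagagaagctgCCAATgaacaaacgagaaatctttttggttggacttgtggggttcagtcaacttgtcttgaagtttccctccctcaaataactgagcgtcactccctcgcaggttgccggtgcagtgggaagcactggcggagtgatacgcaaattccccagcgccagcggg
Col4a6: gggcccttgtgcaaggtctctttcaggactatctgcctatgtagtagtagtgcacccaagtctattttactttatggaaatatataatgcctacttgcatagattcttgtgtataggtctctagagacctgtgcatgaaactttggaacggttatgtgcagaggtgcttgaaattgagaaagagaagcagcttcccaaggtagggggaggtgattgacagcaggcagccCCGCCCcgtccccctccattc

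The window of Col4a5 held 1 CCAAT and that of Col4a6 1 GGGCGG, read here as its reverse complement. The 126 bases between Col4a4 and Col4a3 held none of the 3 motifs. CCAAT occurred in 35% of the 22378 windows of 250 bases upstream of protein-coding genes, GGGCGG in 40.1% and TATAAA in 12.3%. Over the 44 collagen genes the shares were 38.6% (17 genes), 52.3% (23) and 11.4% (5). A match describes the letters and is not a binding site.

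Ratios between partner chains of 1 library do not depend on its depth. The log2 ratio of Col4a6 to Col4a5 was -2.90, -2.83 and -2.63 in Control kidneys and -3.69, -3.99 and -3.57 in knockout kidneys. All knockout kidneys lay below all Control kidneys, with means of -2.79 ± 0.14 and -3.75 ± 0.22 (SD, n = 3 each). The difference of -0.96 had an exact two-sided permutation p of 0.1, the smallest that 3 against 3 allows, and an adjusted p of 0.6 over the 6 ratios computed. For the other 5 ratios the groups overlapped. The ratio of Col4a2 to Col4a1 varied little in either group, at -0.40 ± 0.033 in Control and -0.42 ± 0.024 in knockout kidneys (difference -0.018, exact permutation p 0.6). That of Col4a4 to Col4a3 differed by 0.023 (exact permutation p 1). Its SD was 0.031 among Controls and 0.25 among knockouts, over 3 libraries each and without a test of spread. The knockout SD was also the larger for Col1a2/Col1a1 (0.33 against 0.10), Col5a2/Col5a1 (0.66 against 0.24), Col6a2/Col6a1 (0.26 against 0.12) and Col4a6/Col4a5. Only for Col4a2/Col4a1 was it the smaller. Col1a2 to Col1a1 differed by -0.14, Col5a2 to Col5a1 by 0.11 and Col6a2 to Col6a1 by 0.10, with exact permutation p from 0.7 to 0.8.

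**Figure D4:**
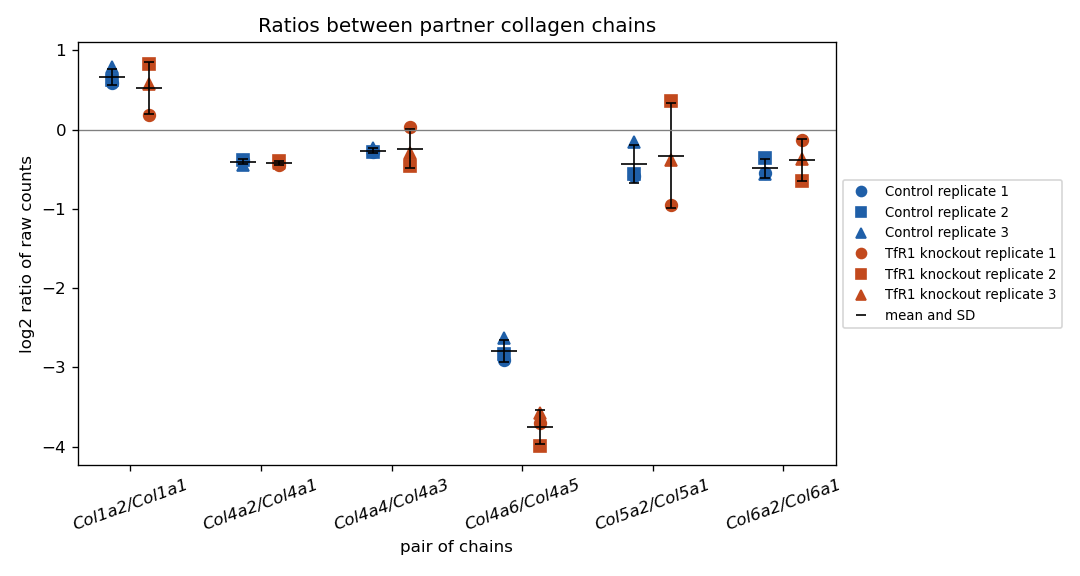
The log2 ratio of raw counts of 6 pairs of partner chains is plotted for each library, with the mean and SD of each group. The groups are apart only for Col4a6/Col4a5, where Control libraries lie between -2.90 and -2.63 and TfR1 knockout libraries between -3.99 and -3.57.

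Of the 6 fibril-associated chains (FACITs, which coat fibrils rather than form them) with at least 60 reads, 2 rose and 2 fell. Called genes were thus 66.7% of this small class, against 15.8% of all genes with at least 60 reads. By edgeR 0 of the 6 passed (6.02% of all genes it tested), and by limma-voom 1, Col12a1 (6.15% of all). Col12a1, a large chain found on type I fibrils of dense and loaded connective tissue, was at 1293, 1294 and 2926 normalized counts in Control kidneys and at 3937, 5764 and 7703 in knockout kidneys. All knockout kidneys lay above all Control kidneys, and Control replicate 3 was the closest to them. The means were 1838 ± 942 and 5801 ± 1883 (SD, n = 3 each), a 3.16-fold rise (log2 fold change 1.66 with an SE of 0.38, DESeq2 adjusted p 3.9e-04). Col12a1 passed in 15 of 16 alternatives, with adjusted p from 3.54e-13 to 0.0523, the highest by edgeR. The smallest log2 fold change, 1.40, was that without TfR1 knockout replicate 3, and the largest was 2.17, with Control replicate 3 and TfR1 knockout replicate 2 both left out.

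Col14a1, a fibril-associated chain of interstitial tissue, was at 3302, 3112 and 6635 normalized counts in Control and at 2382, 535 and 1159 in knockout kidneys. Col12a1 and Col14a1 thus both had their highest Control in replicate 3, yet TfR1 knockout replicates 2 and 3 were low for Col14a1 and high for Col12a1. Col14a1 fell 3.2-fold (-1.68 ± 0.50 SE, DESeq2 adjusted p 0.0094, edgeR adjusted p 0.111, with 8.47e-07 to 0.111 over the alternatives). The call was lost without Control replicate 3 (-1.24) or TfR1 knockout replicate 3 (-1.58), and held without Control replicate 3 and TfR1 knockout replicate 2 together at a smaller size (-0.86).

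Col20a1 and Col9a2 were much less abundant. Col20a1, a little-studied fibril-associated chain, was at 119, 114 and 82.9 normalized counts in Control and at 208, 187 and 166 in knockout kidneys, with no overlap. It rose 1.77-fold (0.83 ± 0.26 SE, DESeq2 adjusted p 0.0137, edgeR adjusted p 0.0889), but in 0 of the 6 fits that left out a library did it pass (DESeq2 adjusted p 0.0517 to 0.0848). Over all 16 alternatives its adjusted p ran from 0.0137 to 0.118, the highest without Control replicate 3 and TfR1 knockout replicate 2 (0.69). Col9a2, a chain of the type IX collagen of cartilage, was at 43.7, 39.99 and 136 in Control and at 19.9, 7.68 and 21.8 in knockout kidneys. Control replicate 3 held more than the other 2 Controls together (log2 fold change -2.13 with an SE of 0.65, DESeq2 adjusted p 0.0106, edgeR adjusted p 0.0892, with 0.00768 to 0.295 over the alternatives).

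The Col9a2 call was lost without Control replicate 3 (-1.33) or TfR1 knockout replicate 2 (-1.80), and without both the change was -1.01 and did not pass. Markers of cartilage and bone were near 0, summing to 8.25, 9.09 and 18.3 normalized counts in Control and to 12.9, 11.5 and 9.46 in knockout kidneys. Control replicate 3 was the highest library for this sum, as for Col9a2. Whether cartilage content bears on Col9a2 was not tested. Col9a3 (0.76) and Col16a1 (-0.54) did not pass. The reads of Col9a3 are uncertain because 234 bases of its longest transcript overlap Tcfl5 on the other strand.

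Col26a1, an extracellular collagen with an EMI domain that the annotation names Emid2, gave the lowest adjusted p of the 39 genes. It was at 982, 1016 and 1338 normalized counts in Control kidneys and at 555, 267 and 436 in knockout kidneys, with the groups well apart. It fell 2.65-fold, from 1112 ± 196 to 419 ± 144 (SD, n = 3 each; log2 fold change -1.40 with an SE of 0.30, DESeq2 adjusted p 9.25e-05, edgeR adjusted p 0.0322). It was the single collagen gene that passed in all 16 alternatives, with adjusted p from 1.31e-06 to 0.0322 and a log2 fold change between -1.66 and -1.01, the latter with Control replicate 3 and TfR1 knockout replicate 2 both left out.

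The 250 bases upstream of the outermost coding transcript of Col26a1 are shown because this gene passed in every alternative. They are on the minus strand of NCBIM37, at chr5:137359055-137359304, and retained-intron transcripts of the gene extend into them. Capitals would mark matches to the same 3 motifs on either strand, and there were none.
Col26a1: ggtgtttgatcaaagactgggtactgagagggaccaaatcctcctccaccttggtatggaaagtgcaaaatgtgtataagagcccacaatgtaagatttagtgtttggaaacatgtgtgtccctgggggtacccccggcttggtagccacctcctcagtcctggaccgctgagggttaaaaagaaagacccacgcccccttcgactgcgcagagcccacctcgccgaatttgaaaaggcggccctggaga

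No chain of the remaining classes passed. Type VI collagen forms beaded filaments around cells, from Col6a1, Col6a2 and a further chain. Col6a1 (log2 fold change 0.20) and Col6a2 (0.40) had overlapping groups, whereas Col6a3 was at 3019, 2959 and 5762 normalized counts in Control and at 3334, 407 and 1484 in knockout kidneys (-1.17 ± 0.83 SE, DESeq2 adjusted p 0.374). TfR1 knockout replicates 1 and 2 differed more than any pair of Controls. Without TfR1 knockout replicate 1 Col6a3 passed as lower (-2.05, DESeq2 adjusted p 0.00124). Without Control replicate 3 and TfR1 knockout replicate 2, by contrast, Col6a1 (0.85) and Col6a2 (1.08) passed as higher, and Col6a3 did not pass (-0.31). Col6a4 (-1.18), Col6a5 (-0.34) and Col6a6 (-0.72), tandem copies on chromosome 9 whose reads can be hard to tell apart, did not pass.

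Col13a1, a transmembrane collagen of cell adhesion sites, was at 120, 135 and 309 normalized counts in Control and at 183, 775 and 515 in knockout kidneys. Its groups overlapped at TfR1 knockout replicate 1, and it missed the threshold (1.38 ± 0.53 SE, DESeq2 adjusted p 0.0595). It passed without Control replicate 3 (1.94), without TfR1 knockout replicate 1, and without Control replicate 3 and TfR1 knockout replicate 2 (1.45, DESeq2 adjusted p 0.0138). The other transmembrane chains had log2 fold changes of -0.87 (Col25a1), 0.21 (Col23a1) and 0.27 (Col17a1). Col7a1 of anchoring fibrils (0.20), the network-forming Col8a1 (0.19) and Col8a2 (-0.22), and Col28a1 (-0.59) did not pass. Col8a2 turned to 0.67 and was called higher without Control replicate 3 and TfR1 knockout replicate 2 (DESeq2 adjusted p 0.0345). Col17a1, with 70 reads in all, was the gene just inside the minimum of 60 reads. Just outside were Col19a1 with 58, Col2a1 with 54, Col22a1 with 49, Col10a1 with 26 and Col9a1 with 11 reads.

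**Figure D5:**
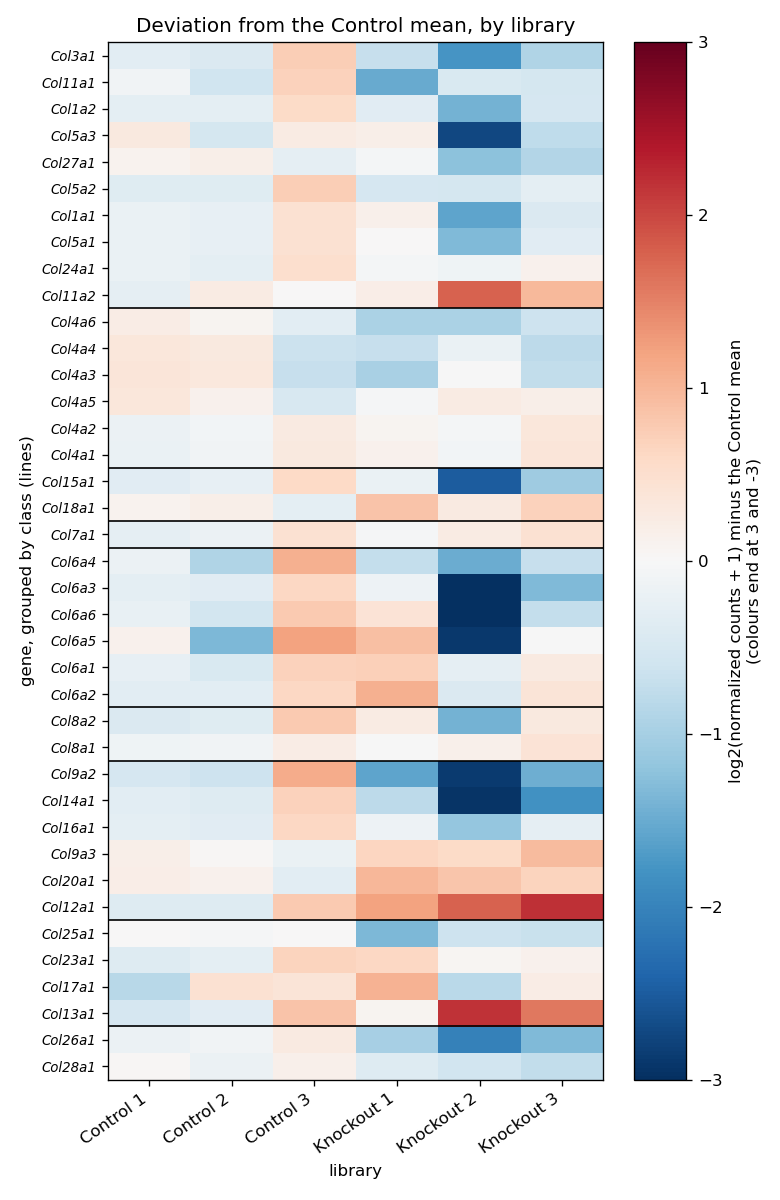
Each row is 1 of the 39 collagen genes, grouped by class, and each column a library, coloured by log2(normalized counts + 1) minus the Control mean. The column of TfR1 knockout replicate 2 holds the darkest blue cells, Control replicate 3 is red for most rows, and the row of Col12a1 is red in all 3 knockouts.

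Levels of the chains were also compared per transcript length. As a share of the summed RPKM (counted reads scaled by transcript length and library total) of all collagen genes, Col3a1 held 16.1%, 15% and 21.7% in Control kidneys and 11%, 8.17% and 10.3% in knockout kidneys. Col4a1 held 16.1%, 17.1% and 14.6% in Control and 17.9%, 24.2% and 22.4% in knockout kidneys. Col4a1 thus had the largest share in every knockout kidney and in Control replicate 2, was level with Col3a1 in Control replicate 1, and Col3a1 led in Control replicate 3. The mean shares of Col3a1 were 17.6% in Control and 9.81% in knockout kidneys, those of Col4a1 15.9% and 21.5%, and those of Col4a2 12.4% and 16.5%. The type I chains held 13.8% and 10.03% (Col1a2) and 7.81% and 6.51% (Col1a1). Col18a1 held 5.24% and 9.18%, and Col12a1 0.434% and 1.82%. These mean shares are over 3 libraries each, and shares depend on one another, since a smaller share of Col3a1 leaves larger shares to the rest. Reads of all collagen chains together, per 1e6 counted, stood at 9634, 9434 and 15298 in Control kidneys and at 10540, 6081 and 10252 in knockout kidneys, with overlapping groups.

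Genes that modify, fold, cleave, crosslink, bind or sense collagen were followed as 6 lists of 53 genes, of which 50 could be tested. DESeq2 called 2 higher and 4 lower, 12% of the 50 against 14.9% of all genes tested. The edgeR test and limma-voom each called 0, against 6.02% and 6.15% of all genes, with 3 higher and 6 lower by edgeR and 2 higher and 10 lower by limma-voom at an unadjusted p under 0.05. The median log2 fold change was -0.22 over the 50 tested and 0.032 without Control replicate 3 and TfR1 knockout replicate 2. In that fit 4 pathway genes passed (8.16% of 49), P3h1 and P3h2 as lower, and Loxl1 (0.80) and the procollagen protease Adamts2 (0.50) as higher.

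Of 10 genes of prolyl and lysyl hydroxylases, among them P4hb, the non-catalytic subunit of prolyl 4-hydroxylase, 0 were higher and 2 lower (20%, against 7.18% of all genes tested). P3h1, which hydroxylates proline at the 3-position of fibrillar chains, was at 1055, 977 and 1111 normalized counts in Control and at 747, 540 and 696 in knockout kidneys (log2 fold change -0.66 with an SE of 0.19, DESeq2 adjusted p 0.00707, with 0.00447 to 0.0984 over its 16 alternatives). P3h2, its counterpart with activity on type IV collagen, was at 2053, 1964 and 1020 in Control and at 1006, 798 and 936 in knockout kidneys. For P3h2, Control replicate 3 lay just above the knockouts (-0.88 ± 0.30 SE, DESeq2 adjusted p 0.0255, with 1.08e-11 to 0.212 over its alternatives). The reads of P3h2 are uncertain because 1055 bases of its longest transcript overlap Gm4524 on the other strand. P3h1 lost its call without Control replicate 1 (-0.66, DESeq2 adjusted p 0.0984). P3h2 lost it in 4 of the 6 fits that left out a library, all but those without Control replicate 3 or TfR1 knockout replicate 1, and was smallest without Control replicate 1 (-0.71).

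The catalytic subunits of prolyl 4-hydroxylase, which stabilizes the triple helix, did not pass. P4ha1 was at 2027, 2004 and 1304 normalized counts in Control and at 2363, 818 and 1576 in knockout kidneys (-0.17, DESeq2 adjusted p 0.824). P4ha2 was at 386, 376 and 311 in Control and at 475, 439 and 504 in knockout kidneys. Its groups did not overlap (0.40 ± 0.18 SE, DESeq2 adjusted p 0.131). The lysyl hydroxylase Plod2 was at 2211, 1991 and 1311 in Control and at 1527, 1562 and 1714 in knockout kidneys (-0.20, DESeq2 adjusted p 0.631). Serpinh1, the collagen chaperone of the endoplasmic reticulum, was at 11257, 11880 and 12951 in Control and at 10122, 5097 and 7884 in knockout kidneys. These groups did not overlap, and the difference did not pass (-0.64 ± 0.27 SE, DESeq2 adjusted p 0.0866). Of the 11 folding and secretion genes 0 passed, with 0 higher and 2 lower at an unadjusted p under 0.05 (DESeq2, and by edgeR).

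Lox, the lysyl oxidase that starts the crosslinking of collagen and elastin, was at 1196, 1112 and 2337 normalized counts in Control and at 1527, 7359 and 4523 in knockout kidneys. TfR1 knockout replicate 1 lay below Control replicate 3, while TfR1 knockout replicate 2 was the highest library. Lox was called higher (2.89-fold, log2 fold change 1.53 with an SE of 0.51, DESeq2 adjusted p 0.023, edgeR adjusted p 0.138), but the call was lost without Control replicate 1 (1.37), Control replicate 2 (1.33), TfR1 knockout replicate 2 (0.97) or TfR1 knockout replicate 3 (1.53), and without Control replicate 3 and TfR1 knockout replicate 2 together (1.39, DESeq2 adjusted p 0.184). The adjusted p ran from 1.90e-05 to 0.215 over the 16 alternatives. The other 5 crosslinking enzymes did not pass.

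Lum encodes lumican, a proteoglycan that binds fibrils, and was at 445, 404 and 1237 normalized counts in Control and at 296, 79.3 and 129 in knockout kidneys. The groups did not overlap (-2.05 ± 0.55 SE, DESeq2 adjusted p 0.00323, edgeR adjusted p 0.0896, with 5.30e-06 to 0.101 over the alternatives), and the call was lost without Control replicate 3 (-1.34) and without Control replicate 3 and TfR1 knockout replicate 2 (-1.0, DESeq2 adjusted p 0.0507). The other 6 proteoglycans tested did not pass. Tll1, a protease that cleaves procollagen ends, was at 87.4, 57.3 and 115 in Control and at 41.8, 47.3 and 31.2 in knockout kidneys (-1.11 ± 0.40 SE, DESeq2 adjusted p 0.0381). It passed in 1 of the 6 fits that left out a library, that without Control replicate 2, and was smallest without Control replicate 3 (-0.86). It did not pass without Control replicate 3 and TfR1 knockout replicate 2 (-0.99, DESeq2 adjusted p 0.204). Itga10, a collagen-binding integrin subunit, was at 160, 169 and 124 in Control and at 166, 426 and 307 in knockout kidneys. TfR1 knockout replicate 1 lay within the Controls (0.99 ± 0.37 SE, DESeq2 adjusted p 0.0498), and among those 6 fits the call held only without TfR1 knockout replicate 1. Among them the smallest value was 0.65, without TfR1 knockout replicate 2, and without Control replicate 3 as well it was 0.53 (DESeq2 adjusted p 0.369).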

How the data were processed

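Poly-A RNA of whole kidneys was sequenced in 6 libraries (TruSeq kits). The authors processed reads with CASAVA 1.8.2 and Trimmomatic, aligned them with TopHat2 2.0.11 to mm9, and deposited raw HTSeq counts per gene without normalization. The annotation release and the strand setting were not given in the sources used here. The tables held 0 columns of other samples. Totals are given in the report, and precision is limited by having 3 libraries in a group rather than by depth.

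From these counts, normalized counts (median-ratio size factors) and the Wald test of DESeq2 1.42.0 in R 4.3.3, the study's tool, were computed on all 24422 genes, with Benjamini-Hochberg adjustment over 16509 genes tested, unshrunken fold changes and no covariate. Alternatives were edgeR 4.0.16, limma-voom (limma 3.58.1), 3 further scalings, count filters, shrinkage, a replicate block and leaving out each library. Leaving out Control replicate 3 and TfR1 knockout replicate 2 together was added after seeing the data, with the 2 libraries picked by their collagen values. With 1 library left out an arm had 2 libraries, and a fit shares the spread over both arms. Chain ratios used exact permutation tests. No replicate pair agreed within counting noise (chi-square per degree of freedom 10.6 to 103). The code was tested on simulated data.

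Members and lists were chosen with earlier results of these data known. Values in every library were given for chains that passed, for the type I, III and IV chains, for the 6 pathway genes that passed and for Serpinh1, P4ha1, P4ha2, Plod2 and Lox. Some further chains (Col15a1, Col18a1, Col6a3, Col13a1, Col11a2) were named with values after those were seen. Positions came from GENCODE M1 (NCBIM37), with Col26a1 matched through a RefSeq synonym. RPKM used the longest coding transcript.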

Additional observations from a re-analysis of the deposited data

How the results depend on the processing

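The 7 collagen calls were the same genes under TMM, total-count and upper-quartile scaling, with independent filtering off and with outlier filtering off. Over all named genes and alternatives, 666 values kept their direction and side of the threshold, 71 lost a call, 25 gained one and 22 changed sign. Only the 7 collagen and 6 pathway genes called in the main fit could lose a call. Out of 16 alternatives each, these genes passed in 3 (Itga10) to 16 (Col26a1). The number of collagen genes called higher, 2, was 0 by edgeR, 1 by limma-voom, 1 with a 2-fold minimum, 1 to 3 when a library was left out and 7 without Control replicate 3 and TfR1 knockout replicate 2. The number called lower, 5, was 1 by edgeR, 1 by limma-voom and 3 to 9 when a library was left out. The 6 calls among pathway genes became 0 by edgeR, 0 by limma-voom and 1 to 11 when a library was left out. Among all genes 2463 passed, 921 by edgeR, 941 by limma-voom and 1239 to 3205 when a library was left out. The fibrillar median of -0.59 was -0.86 to -0.31 when a library was left out and -0.078 without Control replicate 3 and TfR1 knockout replicate 2. The cause of these differences was not tested, beyond the fewer libraries in some fits.

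With the replicate number as a block, 9 collagen genes were lower and 2 higher, 7 pathway genes and 2172 genes in all passed, and the fibrillar median was -0.67. Deviations of same-numbered libraries correlated at 0.015, 0.066 and 0.15, so the numbers were not taken as a pairing.

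Sign changes concerned values that did not pass in the fit with all libraries. Without Control replicate 3 and TfR1 knockout replicate 2, log2 fold changes turned to 0.11 (Col16a1), 0.12 (Col1a1), 0.29 (Col24a1), -0.17 (Col4a5), 0.074 (Col5a1), 0.95 (Col6a5), 0.33 (Col6a6) and 0.67 (Col8a2, which then passed). Over all fits with libraries left out, that one included, values ran from -0.72 to 0.11 (Col16a1), -0.32 to 0.80 (Col17a1), -0.92 to 0.12 (Col1a1), -0.20 to 0.29 (Col24a1), -0.17 to 0.27 (Col4a5), -0.79 to 0.074 (Col5a1), -0.060 to 0.85 (Col6a1), -0.029 to 1.08 (Col6a2), -1.17 to 0.95 (Col6a5), -1.75 to 0.33 (Col6a6), -0.48 to 0.67 (Col8a2) and -0.57 to 0.15 (P4ha1). Col4a5 was also -0.0081 under total-count scaling. When a library was left out, differences in log2 ratio ran from -0.29 to 0.039 (Col1a2/Col1a1), -0.11 to 0.13 (Col4a4/Col4a3), -0.022 to 0.24 (Col6a2/Col6a1) and -0.23 to 0.42 (Col5a2/Col5a1). The summed basement membrane chains had a log2 ratio of -0.046 as shares of the library total and 0.052 in normalized counts.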
